A study of Mus musculus with 8 samples.

Results

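The response to UTP that was shared by both genotypes was measured in cultures of cADSC, adipose-derived stem cells of mouse cardiac fat, by setting the 4 UTP-treated RNA libraries against the 4 untreated ones with genotype as an additive term. All 8 libraries of the series entered, and 17529 of the 52636 genes in the tables were tested, those above 0.5 CPM, counts scaled to a common library total, in at least 2 libraries. The groups were UTP-treated WT and UTP-treated P2Y2 KO cells, given 100 µM UTP every day for 7 days, and untreated WT and untreated P2Y2 KO cells kept for the same 7 days. Each group had 2 libraries, each a pool of RNA of 2 cultures, and p-values therefore measure the spread between pools and not between mice. The sample labels give the strain C57BL/6J for every library, while the methods of the study describe the knockout animals as CD1/C57BL/6J and the donors as adult males and females taken at random. All cultures were plastic-adherent cells of the stromal vascular fraction, grown in serum, and the knockout was a germline deletion, so that every cell type in those cultures carried it.

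UTP is a nucleotide that cells release on stress or injury and that activates the G protein-coupled receptors P2Y2 and P2Y4, while its breakdown product UDP activates P2Y6. Extracellular enzymes also degrade it to uridine, which cells take up and reuse. The stromal vascular fraction of fat holds mesenchymal progenitors together with endothelial cells and resident macrophages, and plastic-adherent cultures made from it can keep some of those macrophages.

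The values used here are the deposited scaled counts, which sum to about the same total in every library and stand for an estimated 18600000 to 22000000 counted reads. In all 8 libraries the progenitor markers were read, Cd44 at 187 to 311 CPM, Eng (CD105) at 148 to 197 CPM and Thy1 (CD90) at 91.4 to 154 CPM, and so was Dpp4 (CD26) at 21.7 to 58.5 CPM. Macrophage markers were read too, and Ptprc, the pan-leukocyte gene, was at 23.0 to 55.9 CPM in UTP-treated and 45.8 to 90.2 CPM in untreated pools. P2ry2 itself was at 16.4 and 16.5 CPM in UTP-treated WT pools and 13.6 and 15.2 CPM in UTP-treated pools labelled P2Y2 KO, against 18.2 and 17.2 CPM in untreated WT pools and 13.9 and 15.6 CPM in untreated pools labelled P2Y2 KO. A count over the whole gene does not show whether the deleted part was read, so P2ry2 did not check the genotype labels, and those pools are called KO-labelled here. P2ry4 was read once, in the first untreated WT pool, and elsewhere had a scaled count of 0, where 0 allows up to 0.15 CPM (3 counts, counting error only). Pools differed in sex, since the first UTP-treated and the first untreated KO-labelled pools had Xist at 0.149 and 0.099 CPM and the first untreated WT pool had 0 CPM of the Y-linked gene Ddx3y. The untreated WT pools stood farther apart than the others, since 197 genes differed over 2-fold between them, compared with 78 in the UTP-treated WT pair.

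Across both genotypes, 72 genes rose and 287 fell with UTP at an adjusted p under 0.05 in edgeR's quasi-likelihood test, 0.411% and 1.64% of the genes tested. Most changes were modest. The median log2 fold change was 0.45 among the genes that rose and -0.79 among those that fell, and 15 and 86 of them, in that order, moved at least 2-fold. The median over all 17529 genes was 0.01. Of the called genes, 71 of 72 were higher in both UTP-treated pools than in both untreated pools within WT and again within the KO-labelled pools, and 286 of 287 were lower in the same sense (0.405% and 1.63% of all genes), where 7.58% and 9.17% of all genes tested did so. The exceptions, named after their values were seen, were Hsd3b6, a steroid dehydrogenase gene read almost only in WT pools, and Tg, the thyroglobulin gene, which had 0.798 and 0.854 CPM in UTP-treated WT pools against 1.16 and 0.844 CPM in untreated WT pools, and 46.1 and 46.1 CPM in UTP-treated KO-labelled pools against 68.9 and 78.3 CPM in untreated ones. Without regard to genotype, the 4 UTP-treated pools lay beyond all 4 untreated pools for 37 of the genes that rose and 103 of those that fell, against 2.05% and 2.37% of all genes tested. The genes were called by a low p on these same pools, which favours a lack of overlap. These counts therefore describe the called genes and do not test them.

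The number of calls depended on single pools. Without the first or the second UTP-treated WT pool, 21 and 9 or 5 and 0 genes were called higher and lower. Without the first UTP-treated KO-labelled pool 8 and 3 were called, and without the first untreated KO-labelled pool 11 and 5. Leaving out any of the other 4 pools gave 46 to 129 higher and 243 to 395 lower. All 359 genes kept their direction in each of these 8 fits, as fits that share most of their pools favour. Called in all 8 were 5 genes, Clec4n, Ccl5, Il1rn, Atp6v0d2 and Itgax. No gene that fell was called in all 8.

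**Figure D1:**
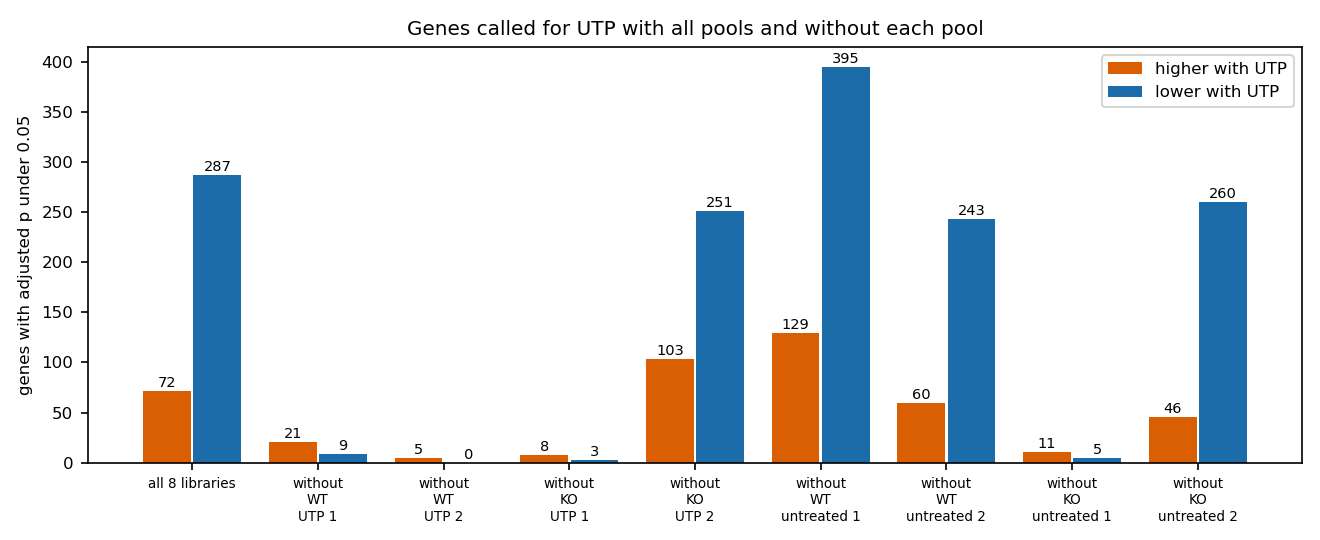
Number of genes called higher (orange) or lower (blue) with UTP, on the vertical axis, in the fit of all 8 libraries and in the 8 fits that each leave out the pool named on the horizontal axis (KO stands for the pools labelled P2Y2 KO). The fit of all pools called 72 and 287, and 4 pools, when left out, took the count of lower genes to 9 or fewer.

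The gene with the lowest p was Clec4n (chr6:123229843-123247021, plus strand, GRCm38), which encodes dectin-2, a myeloid lectin that binds fungal mannans. It was at 50.5 and 42.8 CPM in UTP-treated WT pools and 81.7 and 83.2 CPM in UTP-treated KO-labelled pools, against 8.36 and 8.19 CPM in untreated WT and 14.03 and 9.90 CPM in untreated KO-labelled pools. Every UTP-treated pool thus lay far above every untreated pool. Clec4n rose by 2.65 ± 0.11 on the log2 scale (SE, edgeR adjusted p = 2.44e-05), and its adjusted p stayed between 1.04e-05 and 0.000545 without any 1 pool. It was the only gene called among 13 tested myeloid C-type lectins, whose median log2 fold change was -0.23.

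Il1rn, which encodes the secreted antagonist of the interleukin-1 receptor, had 86.6 and 75.8 CPM in UTP-treated WT pools and 127 and 122 CPM in UTP-treated KO-labelled pools, against 34.5 and 29.4 CPM in untreated WT and 41.5 and 38.3 CPM in untreated KO-labelled pools. The groups did not overlap in either genotype or across them. It rose 2.82-fold (SE of the log2 value 0.08, edgeR adjusted p = 0.000113), and it alone was called among 13 tested genes of the interleukin-1 family. The start of Il1rn is shown because its call held without each pool. The window of 300 bases, 250 before to 50 after the start, comes from RefSeq on GRCm38.p6 and is written 5′ to 3′ along the gene.
Il1rn, chr2:24336610-24336909, plus strand: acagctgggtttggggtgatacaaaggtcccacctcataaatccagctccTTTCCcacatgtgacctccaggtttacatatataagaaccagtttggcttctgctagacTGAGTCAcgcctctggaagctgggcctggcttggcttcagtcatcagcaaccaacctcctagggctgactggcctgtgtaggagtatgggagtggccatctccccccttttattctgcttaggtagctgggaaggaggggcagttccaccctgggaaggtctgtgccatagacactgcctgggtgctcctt
Capitals mark, on either strand, 4 motifs that were searched: GGAAA (the NFAT core, held by 59.0% of the promoters of 11651 tested genes), TGANTCA (AP-1, 5.1%), GAGGAAG (the PU.1 core, 13.5%) and CACGTG (an E-box, 9.7%). In the Il1rn window the NFAT core stood at -200 and an AP-1 motif at -141 from the start, and the other motifs had no match. A match is a run of letters, not a measured binding site. Promoters were found for 54.9% of the genes that rose and 74.8% of those that fell without overlap, too few to compare the shares of motifs between them.

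Ccl5 (chr11:83525778-83530518, minus strand), a chemokine that attracts T cells and monocytes, was read at few counts. It had 19 and 20 scaled counts in UTP-treated WT pools and 61 and 46 in UTP-treated KO-labelled pools, against 3 and 3 in untreated WT and 8 and 8 in untreated KO-labelled pools. The rise was of like size in both genotypes, 2.73 on the log2 scale in KO-labelled pools and 2.65 in WT, although the levels of the KO-labelled pools were higher with UTP and without it. Over both genotypes it was 2.71 with a 95% interval of 2.22 to 3.19 (adjusted p = 0.00178 from edgeR). T and NK cells, which also express Ccl5, had 3 of 18 marker genes above the minimum level, at summed levels of 2.75 to 7.05 CPM in UTP-treated and 3.50 to 7.94 CPM in untreated pools, and their part in the result was not tested. None of the other 13 tested CC chemokines was called, and their list had a median of 0.15.

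Atp6v0d2, a subunit of the proton pump V-ATPase that osteoclasts and some macrophages use, had 39.8 and 35.6 CPM in UTP-treated WT and 45.5 and 42.8 CPM in UTP-treated KO-labelled pools, against 19.9 and 19.9 CPM in untreated WT and 25.1 and 21.5 CPM in untreated KO-labelled pools. Its log2 fold change was 0.92 in each genotype (standard error of the common effect 0.06, adjusted p = 0.00074 from edgeR). The other 18 V-ATPase subunit genes tested were not called, and the 19 together had a median of -0.07. Itgax, the integrin CD11c of dendritic cells and of many fat-tissue macrophages, was at 61.0 and 55.4 CPM in UTP-treated WT and 80.5 and 79.2 CPM in UTP-treated KO-labelled pools, against 40.6 and 34.7 CPM in untreated WT and 50.8 and 46.2 CPM in untreated KO-labelled pools. Itgax rose by 0.67 ± 0.06 on the log2 scale (SE, edgeR adjusted p = 0.00477). These 5 genes thus rose in pools in which 16 of 30 macrophage identity genes fell. The part of cell number in this cannot be told apart from that of expression, because in RNA from whole cultures fewer cells of a type and less RNA per cell give the same count.

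**Figure D2:**
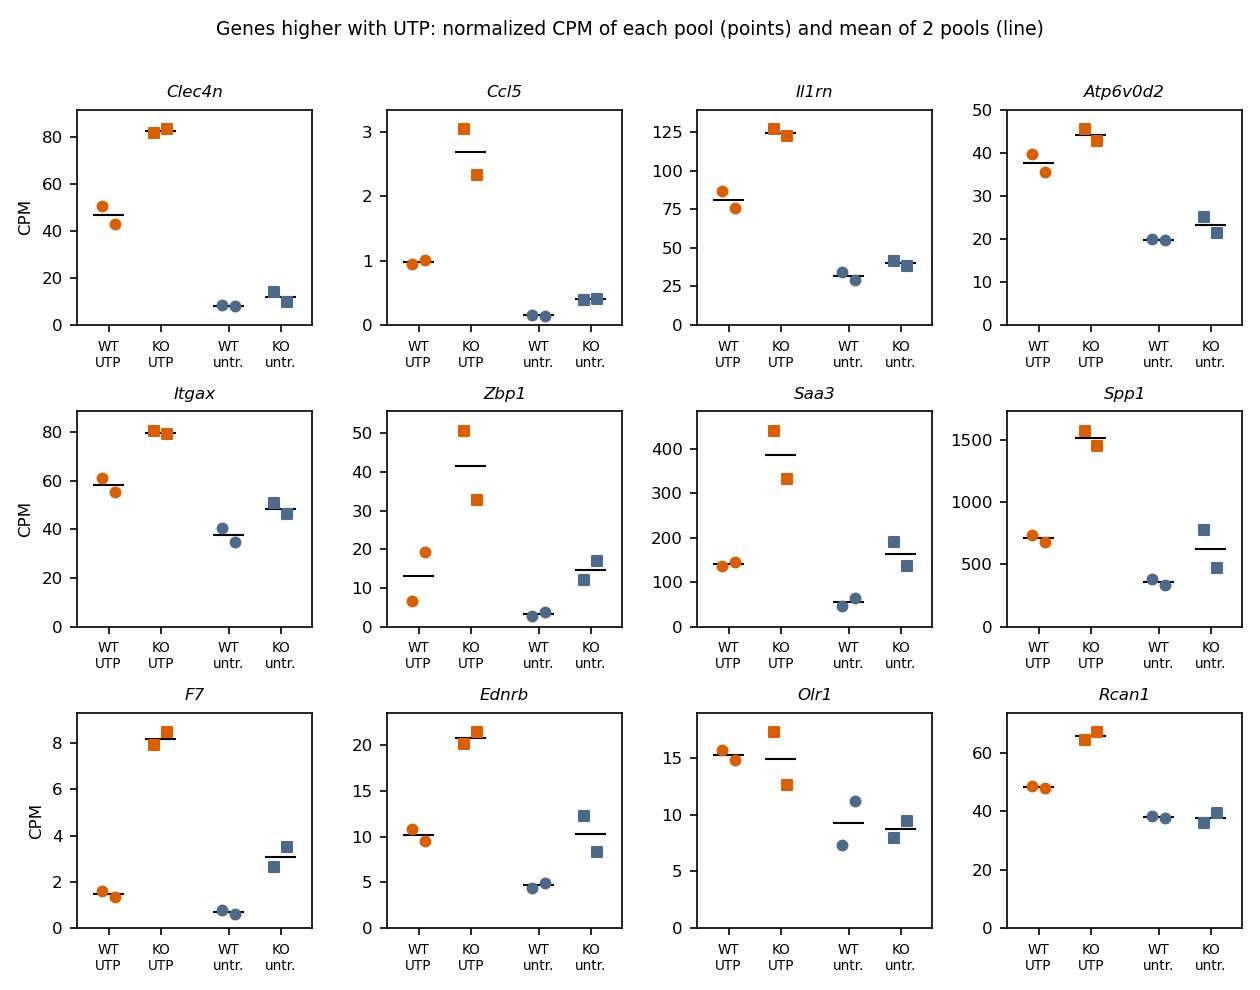
Normalized CPM of 12 genes that rose with UTP, on vertical axes that start at 0, with 1 point per pool and a line at the mean of 2 pools; UTP-treated WT and KO-labelled pools (orange) stand left of the untreated ones (blue), circles for WT and squares for KO. Clec4n is above 42 CPM in each UTP-treated pool and at or below 14.03 CPM in each untreated pool, while Zbp1, Saa3, Spp1 and F7 are higher in KO-labelled than in WT pools under both conditions.

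Some genes of inflammation and of the acute phase also rose. Saa3, a serum amyloid A made by fat and macrophages, was at 137 and 145 CPM in UTP-treated WT and 440 and 331 CPM in UTP-treated KO-labelled pools, against 47.1 and 63.9 CPM in untreated WT and 190 and 136 CPM in untreated KO-labelled pools. Within each genotype the pools did not overlap, but untreated KO-labelled pools reached the level of UTP-treated WT pools. Saa3 rose 2.45-fold (log2 standard error 0.13, adjusted p = 0.00824 from edgeR) and was called without any pool but the second UTP-treated WT pool (adjusted p = 0.0558). Cfb, complement factor B of the alternative pathway, rose 1.80-fold (adjusted p = 0.0434, and up to 0.161 without 1 pool), in reads that it shares on the same strand with the overlapping annotated gene Gm20547. Saa3 and Cfb were the 2 genes called among 20 tested genes of the acute phase and NF-kB response, where 0.411% of all genes tested rose. Of the 20, 18 lay above 0, against 52% of all genes tested, and the list's median was 0.30. The inhibitors of neutrophil proteases Slpi and Serpinb1a rose 1.78-fold and 1.72-fold (adjusted p = 0.0199 and 0.0197), and Lbp, which carries bacterial lipopolysaccharide to CD14, rose 1.33-fold (adjusted p = 0.0188). These 3 genes were picked after their values were seen, and their calls were lost without 3 (Slpi) or 4 of the 8 pools.

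Spp1, which encodes the secreted matrix protein osteopontin, had 735 and 683 CPM in UTP-treated WT and 1573 and 1453 CPM in UTP-treated KO-labelled pools, against 387 and 336 CPM in untreated WT and 780 and 473 CPM in untreated KO-labelled pools. It rose 2.18-fold (adjusted p = 0.0165 from edgeR), and the annotated transcript Gm42793, which overlaps it on the same strand, rose with it (2.15-fold), possibly through reads of Spp1. Zbp1, an interferon-induced sensor of Z-form nucleic acids, rose 3.23-fold and varied widely between pools, with 6.73 and 19.3 CPM in UTP-treated WT, 50.6 and 32.6 CPM in UTP-treated KO-labelled, 2.82 and 3.77 CPM in untreated WT and 12.1 and 17.0 CPM in untreated KO-labelled pools. Zbp1 kept its call without 4 of the 8 pools and Spp1 without 5 (adjusted p up to 0.112 and 0.0712). Siglecf, a sialic acid receptor of eosinophils and alveolar macrophages, had nearly the same levels in both genotypes, 3.54 and 3.36 CPM in UTP-treated WT and 3.53 and 3.29 CPM in UTP-treated KO-labelled pools, against 1.61 and 1.44 CPM in untreated WT and 1.74 and 1.56 CPM in untreated KO-labelled pools. It rose 2.16-fold (adjusted p = 0.0104). Olr1, a receptor for oxidized low-density lipoprotein, rose 1.68-fold and the Src-family kinase gene Fgr 1.81-fold (adjusted p = 0.0391 and 0.038, and up to 0.141 and 0.131 without 1 pool).

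F7 and F10, neighbours on chromosome 8 that encode coagulation factors VII and X, rose together. F7 was at 1.59 and 1.36 CPM in UTP-treated WT and 7.91 and 8.45 CPM in UTP-treated KO-labelled pools, against 0.805 and 0.596 CPM in untreated WT and 2.63 and 3.52 CPM in untreated KO-labelled pools (2.49-fold, adjusted p = 0.0117 from edgeR). F10 was at 1.45 and 1.66 CPM in UTP-treated WT and 5.72 and 5.01 CPM in UTP-treated KO-labelled pools, against 0.604 and 1.24 CPM in untreated WT and 3.02 and 2.51 CPM in untreated KO-labelled pools (1.84-fold, adjusted p = 0.0488). Both were higher in each KO-labelled pool than in the WT pools of the same treatment. The call of F7 held without 5 of the 8 pools and that of F10 without 2 (adjusted p up to 0.0712 and 0.169). The genes lie 1499 bases apart in the same direction, and were among 6 neighbouring pairs that both rose and 27 that both fell, many of which overlap in the annotation. Their start windows are shown because the genes moved as a pair.
F7, chr8:13025784-13026083, plus strand: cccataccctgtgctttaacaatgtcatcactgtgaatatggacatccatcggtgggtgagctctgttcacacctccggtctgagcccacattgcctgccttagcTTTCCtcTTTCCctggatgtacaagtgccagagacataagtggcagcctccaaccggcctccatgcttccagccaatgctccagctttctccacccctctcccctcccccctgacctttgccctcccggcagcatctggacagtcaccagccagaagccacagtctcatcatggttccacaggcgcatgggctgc
F10, chr8:13037058-13037357, plus strand: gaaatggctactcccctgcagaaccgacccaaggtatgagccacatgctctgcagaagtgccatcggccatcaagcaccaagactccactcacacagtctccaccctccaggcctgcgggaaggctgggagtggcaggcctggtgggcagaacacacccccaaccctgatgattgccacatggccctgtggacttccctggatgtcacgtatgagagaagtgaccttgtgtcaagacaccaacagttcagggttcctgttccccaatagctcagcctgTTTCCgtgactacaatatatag
The F7 window held the NFAT core at -145 and -138, the F10 window at 29, and neither held any of the other 3 motifs.

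Other genes that rose encode receptors, ligands and surface markers. Ednrb, the endothelin B receptor gene, was at 10.8 and 9.49 CPM in UTP-treated WT and 20.1 and 21.3 CPM in UTP-treated KO-labelled pools, against 4.43 and 4.96 CPM in untreated WT and 12.2 and 8.29 CPM in untreated KO-labelled pools (2.08-fold, adjusted p = 0.0117 from edgeR). Il20rb, a subunit of receptors for cytokines of the interleukin-10 family, rose 2.27-fold (adjusted p = 0.0281), by 1.64 on the log2 scale in KO-labelled pools and 0.67 in WT. Ptgir, the prostacyclin receptor gene, picked after its values were seen, rose 1.41-fold (adjusted p = 0.02), and Apln, which encodes the vasodilator peptide apelin, rose 1.48-fold (adjusted p = 0.0282). In the list of 20 tested angiogenic ligands and receptors Apln was the 1 that rose, and Nrp2, a receptor of vascular growth factors and semaphorins, was the 1 that fell (1.56-fold, adjusted p = 0.0469, and up to 0.178 without 1 pool). The progenitor markers Ly6a (Sca-1) and Pdgfra rose 1.36-fold and 1.21-fold (adjusted p = 0.0104 and 0.0299), 2 of 16 tested surface markers of mesenchymal progenitors, whose median was 0.13. Beside the counts of the lists in this paragraph, 0.411% of all genes tested rose and 1.64% fell. Ly6a was called without any pool but the second UTP-treated WT pool (adjusted p = 0.0673), Ednrb without 6 of the 8 pools, Ptgir and Apln without 4, Il20rb without 3 and Pdgfra without 2. Rcan1, an inhibitor of calcineurin that is itself a target of calcineurin and NFAT, had 48.7 and 48.1 CPM in UTP-treated WT and 64.2 and 67.0 CPM in UTP-treated KO-labelled pools, against 38.4 and 37.6 CPM in untreated WT and 36.0 and 39.3 CPM in untreated KO-labelled pools (1.49-fold, adjusted p = 0.0244, and up to 0.0899 without 1 pool). The other called gene of 21 in the calcineurin and NFAT list was Nfatc2, a transcription factor of lymphoid and myeloid cells, which fell 2.96-fold.

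Macrophage genes were among those that fell, 16 of 30 in a list of macrophage identity genes where 1.64% of all genes tested fell. Cd163, which takes up haemoglobin bound to haptoglobin, was at 0.897 and 1.05 CPM in UTP-treated WT and 2.89 and 3.54 CPM in UTP-treated KO-labelled pools, against 11.9 and 6.01 CPM in untreated WT and 10.4 and 7.24 CPM in untreated KO-labelled pools. Stab1, the scavenger receptor stabilin-1, was at 53.7 and 49.5 CPM in UTP-treated WT and 110 and 77.2 CPM in UTP-treated KO-labelled pools, against 319 and 185 CPM in untreated WT and 272 and 154 CPM in untreated KO-labelled pools. No UTP-treated pool reached any untreated pool for these genes, and both fell, Cd163 by 2.15 and Stab1 by 1.73 on the log2 scale (standard errors 0.36 and 0.29, adjusted p = 0.029 each from edgeR). Mrc1, the mannose receptor CD206, was at 60.0 and 48.1 CPM in UTP-treated WT and 110 and 110 CPM in UTP-treated KO-labelled pools, against 250 and 142 CPM in untreated WT and 329 and 195 CPM in untreated KO-labelled pools, and fell 2.92-fold (adjusted p = 0.0224). Siglec1, the sialic acid receptor CD169, fell 3.18-fold, at 9.77 to 33.1 CPM in UTP-treated and 42.3 to 74.9 CPM in untreated pools. The carbonyl reductase gene Cbr2 fell most, 4.51-fold (adjusted p = 0.0218), at 0.351 to 1.62 CPM in UTP-treated and 2.04 to 4.97 CPM in untreated pools.

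The other 8 genes with a fall of 3-fold or more were Fcrls, an Fc receptor-like scavenger receptor, Cd244, a signalling receptor of natural killer and myeloid cells, Ms4a6b and Ms4a6c, membrane proteins of leukocytes, P2ry13, an ADP receptor, Nxpe5, and the transcripts BE692007 and AC130831.1. Stab1, Cd244, P2ry13, Ms4a6c and AC130831.1 overlap genes of the other strand, and BE692007 is antisense to Ms4a6c. The kit marked strand, but the strand setting of the counting is not given in the sources used here, so reads of such pairs may not be told apart. Of the 15 genes with the lowest fold changes, 10 were called without 4 of the 8 pools, C5ar2 without 2, and Fgd2, Ms4a6c, Nxpe5 and BE692007 without 5, 6, 7 and 7. The pools whose omission ended most calls were the UTP-treated WT pools and the first KO-labelled pool of each treatment. With the second UTP-treated WT pool left out, the adjusted p was 0.132 for Cd163, 0.133 for Stab1, 0.113 for Mrc1 and 0.106 for Siglec1.

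**Figure D3:**
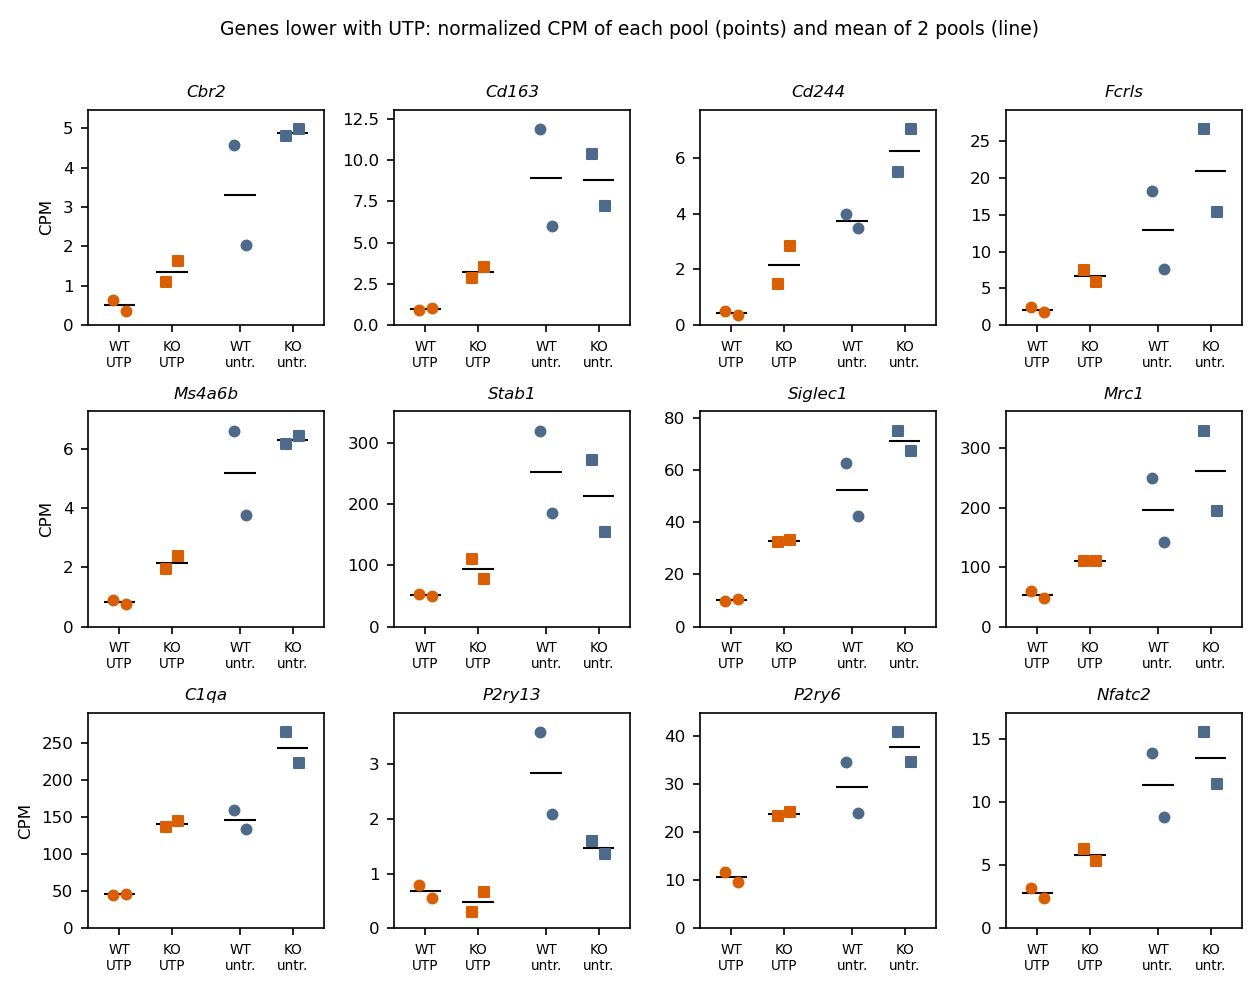
Normalized CPM of 12 genes that fell with UTP, drawn as in the plot of genes that rose, with UTP-treated pools (orange) left of untreated pools (blue). UTP-treated WT pools are the lowest for all of these but P2ry13, for which the UTP-treated KO-labelled pools reach 0.299 CPM, and for C1qa the UTP-treated KO-labelled pools, at 136 and 145 CPM, overlap the untreated WT pools.

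As a list, the 30 macrophage identity genes centred on a median of -0.82 on the log2 scale, with 16 called lower, 0 called higher and 28 below 0. Of all genes tested, 52% lay above 0. The macrophage list was chosen with earlier results of these data known, and its direction had been seen in them. Its summed level was 2255 and 2121 CPM in UTP-treated WT and 4394 and 4519 CPM in UTP-treated KO-labelled pools, against 4992 and 3570 CPM in untreated WT and 6341 and 5413 CPM in untreated KO-labelled pools. The 16 that fell included Csf1r, the receptor on which macrophages depend (2.06-fold, adjusted p = 0.0299), the lysosomal membrane gene Cd68 and the lipid receptor gene Trem2 (1.68-fold, adjusted p = 0.0206). Adgre1, which encodes F4/80, had 78.1 and 80.3 CPM in UTP-treated WT and 168 and 199 CPM in UTP-treated KO-labelled pools, against 202 and 121 CPM in untreated WT and 222 and 220 CPM in untreated KO-labelled pools, and did not pass (adjusted p = 0.118). Neither did the lineage factor gene Spi1 (log2 fold change -0.58, adjusted p = 0.125). The count of 16 was 0 when either WT pool given UTP or the first KO-labelled pool of either treatment was dropped, and 15 to 19 without any other pool. The median lay between -0.92 and -0.63 over all 8 omissions.

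Receptors and secreted proteins of innate immunity fell with them, in lists that share members with the macrophage list. C1qa, C1qb, C1qc, Fcgr1 and Fcgr3 were already counted among the macrophage identity genes that fell. All 3 chains of complement C1q, which starts the classical pathway, fell, C1qa, C1qb and C1qc by 1.22, 1.17 and 1.20 on the log2 scale (adjusted p = 0.0188, 0.0281 and 0.0197 from edgeR). C1qb, the most abundant, was at 62.6 and 59.5 CPM in UTP-treated WT and 218 and 226 CPM in UTP-treated KO-labelled pools, against 223 and 162 CPM in untreated WT and 398 and 327 CPM in untreated KO-labelled pools. The UTP-treated KO-labelled pools thus reached the levels of the untreated WT pools. The receptors of the complement fragments C3a and C5a also fell, C3ar1 2.33-fold, C5ar1 2.52-fold and C5ar2 2.97-fold (adjusted p = 0.029, 0.0392 and 0.0451), as did properdin (Cfp). Of 21 complement genes, 7 fell and 1, Cfb, rose, where 1.64% of all genes tested fell and 0.411% rose. Of 8 tested genes in the Fc receptor list, 5 fell, Fcgr1, Fcgr3, Fcer1g, Fcrls and Fcna, with a median of -0.98 over the 8. Fcna is a ficolin gene and not an Fc receptor, although the list holds it. Of 18 Toll-like receptor genes and partners, Tlr7, Tlr8 and Tlr13, endosomal sensors of RNA, fell by 1.23, 0.89 and 0.96 on the log2 scale (adjusted p = 0.029, 0.0421 and 0.0363). When any of the same 4 pools was dropped, 0 genes of these 3 lists were called lower, and without any other pool 5 to 7, 4 to 6 and 2 to 5 were.

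The C1q genes lie side by side on the minus strand of chromosome 4, with 3617 bases between C1qb and C1qc and 2852 between C1qc and C1qa. The windows of C1qb and C1qc, marked as before, are shown because these neighbours fell by nearly the same amount.
C1qb, chr4:136886151-136886450, minus strand: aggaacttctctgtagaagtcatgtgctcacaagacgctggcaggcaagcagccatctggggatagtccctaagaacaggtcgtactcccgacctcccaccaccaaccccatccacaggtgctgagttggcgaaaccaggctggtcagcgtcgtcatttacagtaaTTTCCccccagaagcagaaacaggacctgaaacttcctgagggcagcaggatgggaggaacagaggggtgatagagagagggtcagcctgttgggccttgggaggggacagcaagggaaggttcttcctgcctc
C1qc, chr4:136892865-136893164, minus strand: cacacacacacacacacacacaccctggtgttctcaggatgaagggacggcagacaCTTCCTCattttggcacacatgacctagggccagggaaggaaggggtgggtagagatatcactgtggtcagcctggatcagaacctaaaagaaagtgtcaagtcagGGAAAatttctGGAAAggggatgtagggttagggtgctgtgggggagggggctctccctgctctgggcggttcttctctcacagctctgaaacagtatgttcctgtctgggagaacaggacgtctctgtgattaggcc
The C1qc window held a PU.1 core at -194 and the NFAT core at -88 and -77, and the C1qb window the NFAT core at -84. The RefSeq start used for C1qc lies 151 bases from that of the GENCODE annotation.

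Signalling genes of leukocytes fell as well. Of 24 leukocyte integrin and signalling genes, 10 fell, among them Vav1 and Vav3 (exchange factors), Btk and Lyn (kinases), Plcg2 (phospholipase C gamma 2), Inpp5d (the phosphatase SHIP1), and Pik3cd, Pik3cg and Pik3r5 (subunits of leukocyte phosphoinositide 3-kinases). Pik3cg had 8.58 and 8.13 CPM in UTP-treated WT and 17.5 and 21.95 CPM in UTP-treated KO-labelled pools, against 33.1 and 18.8 CPM in untreated WT and 38.9 and 37.0 CPM in untreated KO-labelled pools, a fall of 2.39-fold (adjusted p = 0.0261 from edgeR). The 2 that rose were Itgax and Fgr. Over all genes tested, 1.64% fell and 0.411% rose. The list's median was -0.74, and 0 of its genes were called lower when any of the same 4 pools was dropped. Adam8, a membrane protease of myeloid cells, fell 2.19-fold, Tgfbi, a TGF-beta-induced matrix protein, 2.11-fold, and Tnfrsf11a, the receptor RANK that drives osteoclast formation, 2.52-fold (adjusted p = 0.029, 0.0182 and 0.0409).

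Among receptors for nucleotides, 2 of 17 tested genes fell and 0 rose. Beside this count and those of the lists that follow, 1.64% of all genes tested fell and 0.411% rose. P2ry6, the UDP receptor, was at 11.6 and 9.64 CPM in UTP-treated WT and 23.2 and 24.2 CPM in UTP-treated KO-labelled pools, against 34.6 and 23.9 CPM in untreated WT and 40.7 and 34.5 CPM in untreated KO-labelled pools (2.05-fold lower, adjusted p = 0.0292 from edgeR). P2ry13 fell 3.66-fold and was at 0.299 to 0.798 CPM in UTP-treated and 1.36 to 3.57 CPM in untreated pools. P2ry2 did not pass the test, with a log2 fold change of -0.07 (adjusted p = 0.632). Enpp1, an ectoenzyme that hydrolyses nucleoside triphosphates such as UTP, fell 1.51-fold (adjusted p = 0.0224), the only gene called of 15 ectonucleotidases, and Slc28a2, a nucleoside transporter, fell 1.96-fold (adjusted p = 0.04), the only one called of 24 tested genes of pyrimidine salvage and synthesis. All 4 calls were lost when any of the same 4 pools was dropped. Of 27 cell cycle genes, Ccnd1 (cyclin D1) fell 1.65-fold and Pcna, Mcm3 and Mcm6, parts of the replication machinery, by 1.16 to 1.18-fold, where Mcm6 was called without 0 of the 8 omitted pools. Of 25 lysosomal genes, Ctsb, Hexa, Lgmn and Npc1 fell by 1.21 to 1.38-fold. In both lists 0 genes were called when any of the same 4 pools was dropped.

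**Figure D4:**
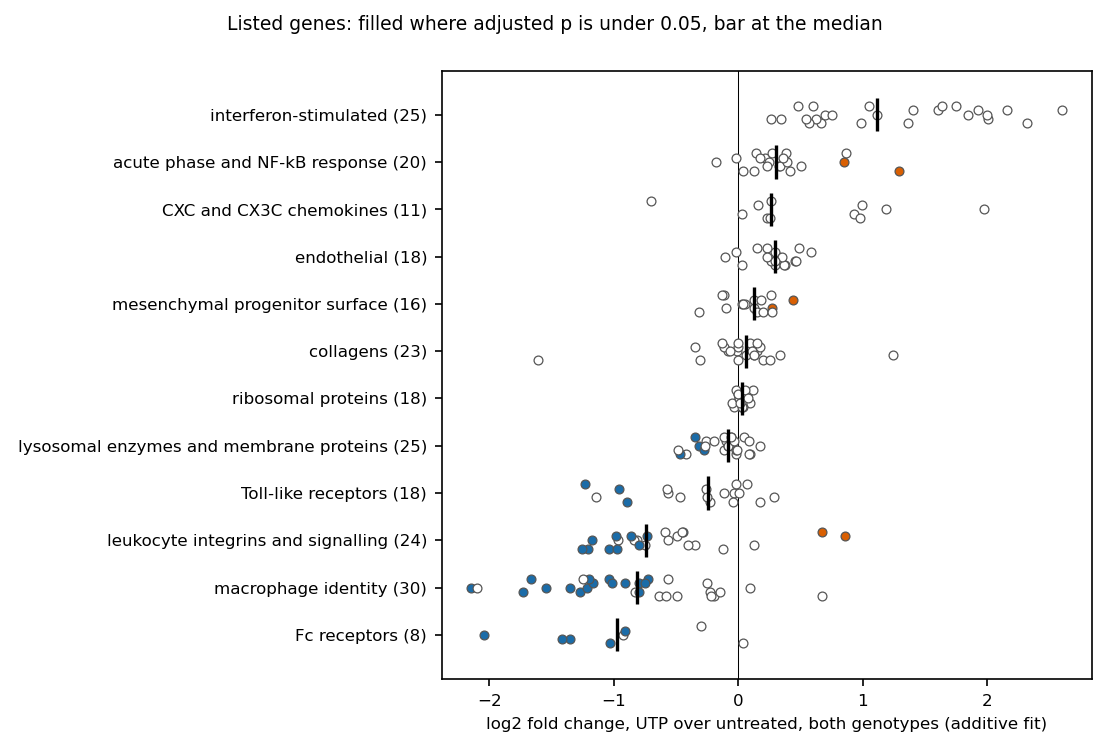
Log2 fold change with UTP over both genotypes (horizontal axis) of each tested gene of 12 lists, with the number of genes tested in brackets, filled where called (orange higher, blue lower), and a bar at the list's median. The macrophage, Fc receptor and leukocyte signalling lists have medians of -0.82, -0.98 and -0.74, and the 25 listed interferon-stimulated genes all lie above 0 with 0 called.

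Some lists lay mostly on 1 side of 0 with 0 calls, where 52% of all genes tested lay above 0. All 25 listed interferon-stimulated genes lay above 0 with a median of 1.11, and 23 had an unadjusted p under 0.05, against 17.6% of all genes tested. After adjustment 0 passed edgeR's test, while DESeq2 called 11, a fit with no minimum level 18, a fit without the first UTP-treated WT pool 3 and one without the second UTP-treated KO-labelled pool 1. Their median lay between 0.65, without the first UTP-treated KO-labelled pool, and 1.38, without the second. Their summed level was 379 to 1532 CPM in UTP-treated and 339 to 650.5 CPM in untreated pools, which overlap. Isg15, a ubiquitin-like protein induced by interferon, had 10.3 and 54.6 CPM in UTP-treated WT and 77.0 and 48.8 CPM in UTP-treated KO-labelled pools, against 6.19 and 6.30 CPM in untreated WT and 12.8 and 24.9 CPM in untreated KO-labelled pools (log2 fold change 2.01, adjusted p = 0.0625). The UTP-treated WT pools thus lay far apart, and the first was below both untreated KO-labelled pools. Some genes outside this list that interferon can induce did pass, among them Zbp1, described above. Ifitm3, Ly6e and Slfn5, picked after their values were seen, rose 1.29-fold, 1.48-fold and 1.30-fold (adjusted p = 0.0299, 0.029 and 0.0193 from edgeR). Their calls held without 3, 4 and 4 of the 8 pools. Endothelial genes had a median of 0.30 with 16 of 18 above 0 and 0 called, and CXC and CX3C chemokines 0.26 with 10 of 11 above 0 and 0 called, where 7 and 8 genes had an unadjusted p under 0.05 and DESeq2 called 0 of the endothelial genes and 2 higher and 1 lower of the chemokines. Epithelial genes lay above 0 for all 14 (median 0.89, 0 called, 2 at an unadjusted p under 0.05), but this value turned on the untreated WT pools. Their summed level was 149 and 152 CPM in UTP-treated WT and 62.2 and 53.8 CPM in UTP-treated KO-labelled pools, against 42.8 and 127 CPM in untreated WT and 61.8 and 51.4 CPM in untreated KO-labelled pools. The median was 0.21 without the first untreated WT pool and 1.83, with 5 genes called higher, without the second. The 23 collagen genes had a median of 0.06 and the 18 ribosomal protein genes 0.03, with 0 called in each.

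Ccl5 and Saa3 were chosen for qPCR in the study together with Cxcl5 and Ccl12. By qPCR and by protein release, the study reported that UTP raised Ccl5, Saa3 and Cxcl5 and lowered Ccl12. It listed Ccl12 among the genes regulated by UTP in WT and not in P2Y2 KO cells. Neither Cxcl5 nor Ccl12 passed the test over both genotypes, which averages WT with KO-labelled pools and so is a different comparison. Cxcl5, a neutrophil chemoattractant, had 32.0 and 29.3 CPM in UTP-treated WT and 78.8 and 37.2 CPM in UTP-treated KO-labelled pools, against 8.46 and 18.5 CPM in untreated WT and 39.4 and 25.9 CPM in untreated KO-labelled pools (log2 fold change 0.99, adjusted p = 0.115 from edgeR). For Cxcl5 and for Ccl12 alike, the KO-labelled pools of both treatments overlapped and the WT pools did not. Ccl12, a monocyte chemoattractant, had 1.90 and 1.76 CPM in UTP-treated WT and 12.7 and 6.42 CPM in UTP-treated KO-labelled pools, against 11.7 and 7.64 CPM in untreated WT and 17.1 and 11.6 CPM in untreated KO-labelled pools (log2 fold change -1.28, adjusted p = 0.121).

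How far the effect was common to both genotypes was then asked of each genotype's own pools, which share no library. All 359 called genes had the same sign in WT and in KO-labelled pools, as an effect averaged over both favours. Fitted alone, the 4 WT libraries and the 4 KO-labelled libraries gave log2 fold changes that correlated over the 17529 genes with a Pearson r of 0.405 (Spearman rho 0.321), a description across genes, which are not independent, and 61% of genes had the same sign. Of the 100 genes with the lowest p in WT alone, 99 had the same sign in KO-labelled pools and 88 also an unadjusted p under 0.05 there, which 8.6% of all genes had in KO-labelled pools alone. The median of these 100, taken in the direction seen in WT, was 0.64 in KO-labelled pools and 1.43 in WT. Of the 100 chosen in KO-labelled pools, 100 had the same sign in WT and 93 also an unadjusted p under 0.05, which 15% of all genes had in WT alone, with medians of 0.66 in KO-labelled pools and 1.32 in WT. Genes chosen in either genotype thus had the larger median in WT. In the model of the 4 groups, the UTP effect within WT was called for 25 genes higher and 189 lower. Within KO-labelled pools it was called for 6 higher and 0 lower. Of the 359 called genes, 195 were called in neither genotype of that model.

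The genes that fell lay nearer 0 in KO-labelled pools by their median. That median log2 fold change was -0.58 in KO-labelled pools and -0.97 in WT, and 263 of 287 were farther from 0 in WT. The genes that rose had medians of 0.41 in KO-labelled pools and 0.46 in WT, with 41 of 72 farther from 0 in WT. The share of all genes tested that lay farther from 0 in WT was not computed. These counts are therefore not shown to be particular to the called genes. For no gene did the difference between the genotypes pass edgeR's test after adjustment (smallest adjusted p 0.837; 922 genes had an unadjusted p under 0.05 and DESeq2 called 6), but without the second untreated WT pool 273 genes passed. Among the called genes, 72 of those that fell and 5 of those that rose had an unadjusted p under 0.05 for the difference. The lowest were those of C1qa, with log2 fold changes of -0.79 in KO-labelled pools and -1.68 in WT (difference 0.88, 95% interval 0.55 to 1.22, unadjusted p = 0.000247 from edgeR), and Siglec1, with -1.11 in KO-labelled pools and -2.35 in WT (difference 1.24, 0.70 to 1.78). Rcan1 went the other way, with 0.80 in KO-labelled pools and 0.35 in WT (difference 0.45, 0.24 to 0.66).

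Marco, a scavenger receptor gene, had the largest difference among the 10 genes with the lowest p for it, at 7.53 and 8.13 CPM in UTP-treated WT and 61.9 and 71.4 CPM in UTP-treated KO-labelled pools, against 11.98 and 8.54 CPM in untreated WT and 32.3 and 18.9 CPM in untreated KO-labelled pools. Its difference between genotypes was 1.77 on the log2 scale (95% interval 0.95 to 2.58, unadjusted p = 0.000963 and adjusted p = 0.837 from edgeR). Gmfg and Pilra, genes of leukocytes, had log2 fold changes of -0.17 and -0.02 in KO-labelled pools and -1.89 and -0.91 in WT, and Draxin, a guidance factor gene, had -0.14 in KO-labelled pools and 0.79 in WT. For Clec4n the difference was 0.29 (95% interval -0.19 to 0.77). For Ccl5 it was 0.08, where the effects had standard errors of 0.28 in KO-labelled pools and 0.40 in WT. For Atp6v0d2 it was 0, with standard errors of 0.09 and 0.10 in that order. No interval is given for these differences near 0, because the way it was computed is unreliable there, and equal effects were not shown.

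**Figure D5:**
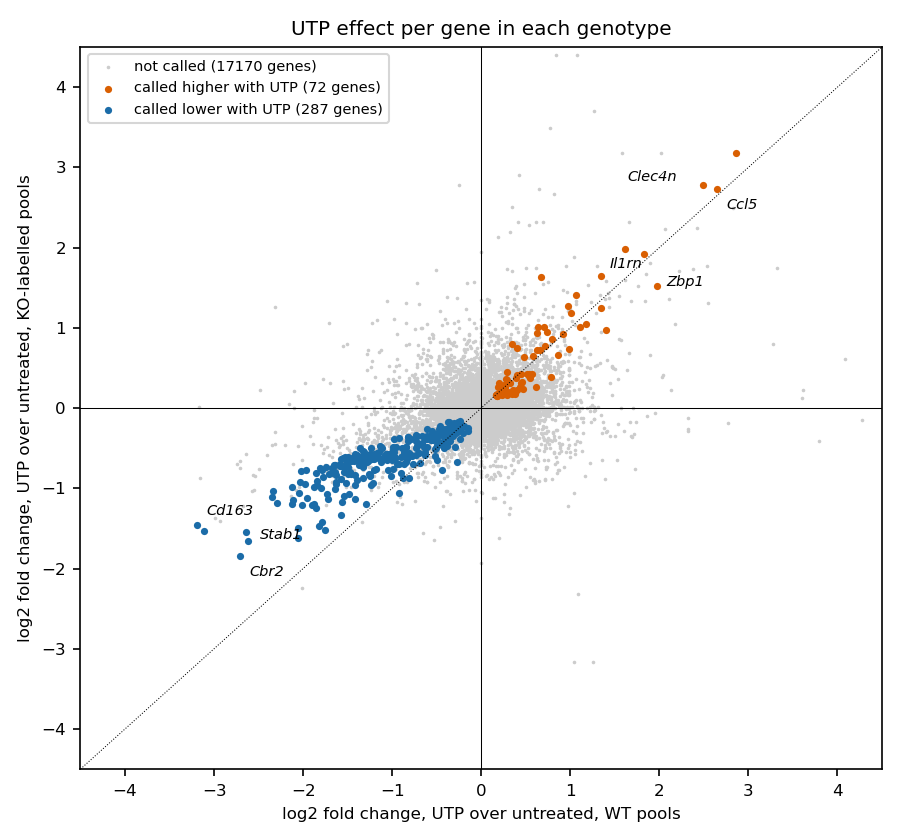
Log2 fold change with UTP in KO-labelled pools (vertical axis) against that in WT pools (horizontal axis), from 1 model with the 4 groups, for 17529 genes (3 uncalled genes lie outside the limits of 4.5). The 72 genes called higher (orange) lie near the dotted line of equal effect, and the 287 called lower (blue) lie mostly between that line and 0 on the vertical axis, since 263 of them moved farther in WT.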

How the data were processed

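RNA of cADSC was sequenced from stranded mRNA libraries in 8 pools. Per the labels and the methods of the study, Trimmomatic served for trimming, STAR for alignment to mm10 (GRCm38.p4) and HTSeq for counting per gene; tool versions and the strand setting of the counting are not given in the sources used here. Each deposited value is treated as an estimated count, since the gene counts made by the authors appear scaled by 1 factor per library to nearly equal totals and rounded up, as the low values show. A value of 10 is therefore 0.5 CPM, and intervals cover counting error and the spread between pools. The deposited tables also hold the authors' averages per group and ratios between treatments, which were not used. Gene names changed to dates by a spreadsheet were restored in 15 cases.

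Both tables were joined on gene ID. Genes above 0.5 CPM in at least 2 of 8 libraries were tested with edgeR 4.0.16 (limma 3.58.1, R 4.3.3), with TMM factors, a quasi-likelihood fit of genotype plus treatment with 5 residual degrees of freedom, and Benjamini-Hochberg adjustment over all genes. All adjusted p-values are from that test and two-sided. The genotype difference came from the interaction in a model of the 4 groups. Named genes were the 15 highest and 15 lowest log2 fold changes among called genes of at least 1 CPM without overlap in either genotype, called members of the gene lists, the genes of the study's qPCR, and the 10 lowest p of the interaction; others are said to be picked after their values were seen. The members and lists were chosen with earlier results of these data known. Alternatives were other scalings, DESeq2 1.42.0, limma with pseudocounts of 0.5 and 1, other minimums, other model terms and leaving out each pool. The code was tested on simulated data. Positions come from GENCODE on GRCm38, found for 52403 genes, and promoters from RefSeq on GRCm38.p6. Results for some genes are not reported here.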

Additional observations from a re-analysis of the deposited data

Results flagged for a closer look

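Groups of 4 pools were searched for 1 pool that lay far from the other 3, in 170 combinations of a gene or list with UTP-treated or untreated pools. For pools of 1 kind, chance would give about 1 in 20, or 8.5, and 3 were found. The pools here mix both genotypes and the genes are not independent, so 8.5 is only a rough guide. In the untreated pools, Cbr2 was lowest in the second WT pool, at 2.035 CPM, where the next value was 4.581 and the highest 4.974 CPM. Ms4a6b was lowest in the same pool, at 3.773 CPM, where the other untreated pools had 6.149 to 6.594 CPM. The summed level of the mitochondrially encoded genes was highest in the second KO-labelled pool among UTP-treated pools, at 6730 CPM, against 6000 to 6103 CPM in the other 3.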

How the results depend on the processing

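All 359 called genes kept their direction under every alternative in which they were tested, as refits of the same pools or a part of them favour. DESeq2 called 232 genes higher and 539 lower (207 and 522 without overlap in either genotype) and no minimum level 256 and 583 (209 and 562). No genotype term left 0 and 0, with 1274 genes at an unadjusted p under 0.05, the WT libraries alone gave 1 and 1, the KO-labelled libraries alone 2 and 1, and a bound of 2-fold 15 and 86. Leaving out 1 pool gave 5 to 129 higher and 0 to 395 lower, and without overlap 5 to 129 and 0 to 394. For the genotype difference, 0 genes became 6 with DESeq2, 28 with no minimum and 0 to 273 without 1 pool, 273 without the second untreated WT pool. The cause was not tested. Same-numbered pools deviated together in KO-labelled pools (r = 0.42) and not in WT (r = 0.0113), and the first KO-labelled pools of both treatments also shared a near absence of Xist. No label says what a number stands for, so the pools were not treated as paired. With the replicate block, 107 and 349 genes were called (4 interferon-stimulated genes among those higher), and with a block for KO-labelled pools only, added after seeing the data, 66 and 203. The planned comparison of motif shares by direction was not run, because promoters were found for only 54.9% of the genes that rose and 74.8% of those that fell without overlap. With 2 pools a group, of cultures whose sex mix differed, these fits cannot separate UTP from differences between cultures beyond the spread between pools.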

Other observations

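Some single genes of eicosanoid metabolism were picked after their values were seen and form no list that was tested. Hpgds, a synthase of prostaglandin D2, had 9.57 and 9.49 CPM in UTP-treated WT and 17.1 and 21.9 CPM in UTP-treated KO-labelled pools, against 51.0 and 24.2 CPM in untreated WT and 41.8 and 33.2 CPM in untreated KO-labelled pools, and fell by 1.43 on the log2 scale (standard error 0.27, edgeR adjusted p = 0.0375). No UTP-treated pool reached an untreated pool. Hpgd, which inactivates prostaglandins, fell by 1.38, Alox15, a lipoxygenase gene, by 1.20, Alox5ap, the partner of 5-lipoxygenase, by 1.11, Cysltr1, a leukotriene receptor gene, by 1.01 and Tbxas1, the thromboxane synthase gene, by 0.78 on the log2 scale (edgeR adjusted p = 0.029, 0.0375, 0.0368, 0.0299 and 0.0368). Alox5 just missed the threshold, with a log2 fold change of -0.88 (adjusted p = 0.0502). The cyclooxygenase genes Ptgs1 and Ptgs2 had log2 fold changes of 0.24 and 0.39 and did not pass the test (adjusted p = 0.24 and 0.13). Ptgir, the prostacyclin receptor gene described above, rose 1.41-fold (edgeR adjusted p = 0.02). Without the second UTP-treated WT pool 0 genes were called lower, so the falls named here lost their calls. Alox5ap overlaps Gm19719, a gene of the other strand that also fell, so their reads may not be told apart.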
